A study of Anser cygnoides with 11 samples.

Results

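Transcripts of 9 genes that cut, protect or crosslink the extracellular matrix were examined in kidneys of 5 goslings with visceral gout and 6 healthy goslings: the matrix metalloproteinases MMP2 and MMP11, the aggrecanase-type protease ADAMTS1, the urokinase plasminogen activator PLAU and its receptor PLAUR, the metalloproteinase inhibitors TIMP2 and TIMP3, and the crosslinking enzymes LOX and LOXL2. Members were taken by symbol from the deposited table of 19275 rows, with the most abundant row to be used where a symbol had several. A single row was found for each of 7 members, all of which passed the filter of at least 1 FPKM (fragments per kilobase of transcript, scaled to the mapped fragments of the library) in at least 5 libraries. No row carried the symbol TIMP2 or PLAUR, and these 2 genes were not analysed here. The gene set was drawn up with the difference between gout and healthy kidneys already known, so that difference is described for the members and not tested.

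The goslings were swan geese (Anser cygnoides). Those of the gout group were selected for the typical appearance and serum findings of visceral gout, in which urate is deposited on internal organs, and were sampled while diseased; the control goslings were healthy. Breed, sex, age and feed are not given in the labels. The labels carry a treatment text on oxygen in water tanks, taken here to concern no gosling. Apart from it, no allele, drug or other agent is named for either group. Each library is polyadenylated RNA of whole renal tissue from 1 gosling, so fewer cells of a type and less RNA per cell cannot be told apart.

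The matrix between kidney cells is a network of collagens, laminins and glycoproteins that is built and cut continuously. Secreted proteases are made as inactive precursors: matrix metalloproteinases need removal of a propeptide, and urokinase turns plasminogen into plasmin, a broad protease that can activate some of them. TIMPs bind and block the active metalloproteinases, while lysyl oxidases oxidise lysines of collagen and elastin so that the fibres become crosslinked. In mammalian kidney these genes are best known from fibrosis, in which fibroblasts and pericytes are main producers of MMP2, LOX and the fibrillar collagens, whereas urokinase is made mainly by tubule cells.

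Summed FPKM per library lay between 229465 and 399990 for gout kidneys and between 306484 and 390546 for control kidneys, a difference that a two-sided exact permutation test put at p = 0.407. By the same test the libraries did differ in 2 other measures. Rows at 1 FPKM or more numbered 11284 ± 557 in gout and 12124 ± 249 in control (SD, n = 5 and 6; exact p = 0.00866). The 10 most abundant rows took 25.6% to 29.7% of the FPKM in gout and 18.7% to 22.2% in control libraries, without overlap (exact p = 0.00433, the smallest that 462 splits allow). The part of these differences in the values below was not tested. Gout replicates 2 and 3 had the lowest totals of all 11 libraries, at 246944 and 229465. The table holds no read counts and the depth is unknown. Among the 12252 tested rows log2 fold changes had a median of -0.29, and gout values are to be read against that shift. Kidney transcripts were present: PAX2, a transcription factor of kidney epithelium, averaged 8.69 FPKM in gout and 8.31 in control libraries, and EMX2, another such factor, 73.6 in gout and 59.4 in control. LHX1, a further one, averaged 3.82 FPKM in gout and 6.33 in control, and the epithelial adhesion gene EPCAM 25.4 in gout and 38.0 in control; limma adjusted p-values were 0.858 for PAX2, 0.423 for EMX2, 0.193 for LHX1 and 0.177 for EPCAM.

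MMP2, MMP11 and PLAU were lower in gout, while the inhibitor TIMP3 and the protease ADAMTS1 varied widely between diseased goslings and LOX and LOXL2 differed little. Gout means of MMP2, MMP11 and PLAU were 30.0%, 32.8% and 23.3% of their control means, and in these 3 of 7 genes every gout library lay below every control library. Of all tested rows 4.55% were separated in that direction and 0.482% in the other. The same 3 of 7 genes, and 0 in the other direction, were past a limma adjusted p of 0.05 over all rows, against 6.29% of all tested rows called lower, 0.694% called higher and 6.99% called in either direction. As the members were chosen on this contrast, nothing is read from those counts. The median log2 fold change of the 7 genes was -0.32, beside -0.29 for all tested rows.

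**Figure D1:**
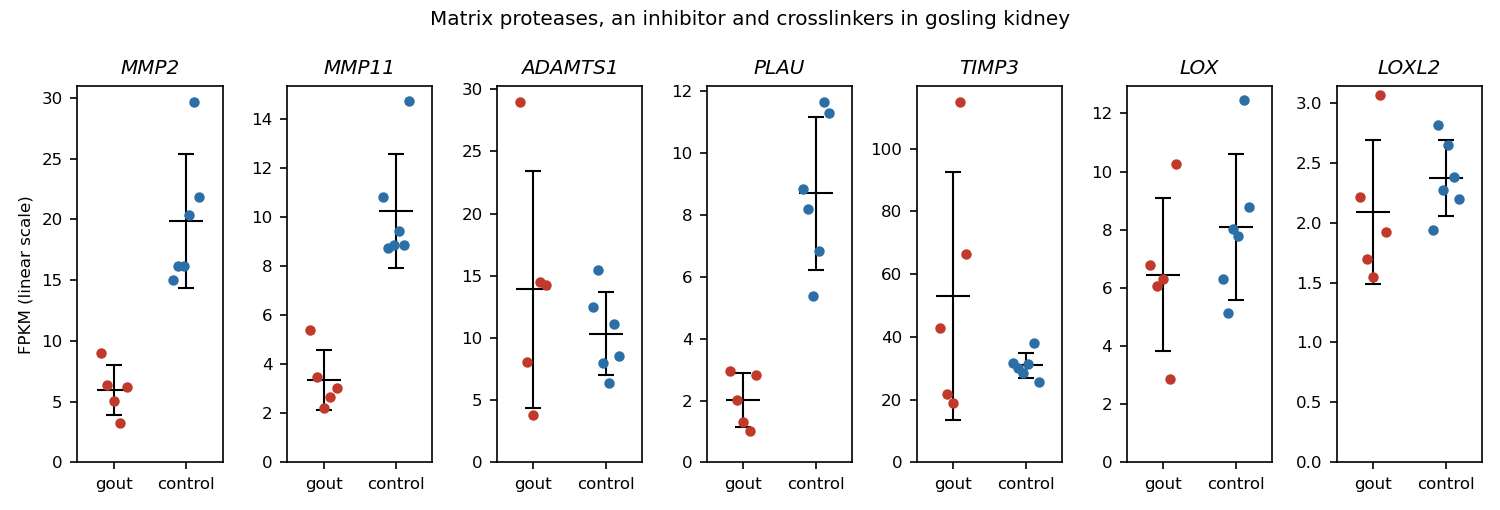
FPKM (linear axis, each panel with its own range starting at 0) of the 7 genes, with 1 point per gosling, gout in red and control in blue; horizontal bars are means and whiskers SD (n = 5 gout, 6 control). MMP2, MMP11 and PLAU show no overlap of the groups, and TIMP3 spans 18.8 to 115 FPKM in gout against 25.7 to 38.0 in control.

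MMP2, gelatinase A, degrades basement membrane collagen and denatured collagen. Its level was 8.97, 6.35, 5.05, 3.24 and 6.19 FPKM in gout replicates 1 to 5, against a lowest, median and highest control value of 15.1, 18.3 and 29.7 FPKM. All 5 gout libraries thus lay below the lowest control library, with gout replicate 1 the nearest to it. The log2 fold change was -1.60 (SE 0.25; FPKM with a pseudocount of 1, as for every fold change given here), and only 1.63% of tested rows had a lower one. Among tested rows MMP2 stood above 81.1% by level in control kidneys but above 53.7% in gout kidneys.

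MMP11, stromelysin-3, is a metalloproteinase that is activated inside the cell by furin and in mammals is made mostly by stromal fibroblasts. It had 5.40, 3.47, 2.23, 2.69 and 3.02 FPKM in gout replicates 1 to 5, against 8.73, 9.16 and 14.7 FPKM as the lowest, median and highest control values. Gout replicate 1 was the highest diseased kidney for MMP11 as it was for MMP2, and still lay below all healthy ones. The log2 fold change was -1.38 (SE 0.22). In RefSeq's annotation of a Taihu goose assembly a long non-coding gene overlaps MMP11, and the sources used here do not give whether counting used strand.

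PLAU, the urokinase-type activator of plasminogen, had the lowest gout level of the 7 genes relative to control. Gout replicates 1 to 5 held 2.95, 2.03, 1.31, 1.02 and 2.82 FPKM, and the lowest, median and highest control values were 5.37, 8.51 and 11.6 FPKM. The log2 fold change was -1.69 (SE 0.25), and 1.23% of tested rows had a lower one. Gout replicate 4 had the lowest value of both PLAU and MMP2.

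TIMP3, the matrix-bound inhibitor of metalloproteinases and ADAMTS proteases, was the most abundant of the 7 genes in both groups. It had 42.8, 21.8, 18.8, 115 and 66.3 FPKM in gout replicates 1 to 5, while control libraries kept to a lowest, median and highest value of 25.7, 30.8 and 38.0 FPKM. No gout library fell inside the control range: replicates 1, 4 and 5 lay above it and replicates 2 and 3 below it. The coefficient of variation was 74.7% in gout and 13.2% in control kidneys. With a mean of 52.9 ± 39.5 FPKM in gout and 30.9 ± 4.10 in control (SD, n = 5 and 6), the log2 fold change of 0.45 had an SE of 0.39, and without gout replicate 4 it was 0.10.

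The 2 gout libraries with low TIMP3 were also the 2 with the lowest FPKM totals. When each library was rescaled to a common total (the TPM scale), TIMP3 in gout replicates 2 and 3 came to 88.2 and 81.9 TPM, inside the control range of 78.5 to 108 TPM, and replicates 1, 4 and 5 stayed above it at 117, 350 and 166 TPM. For MMP2, MMP11 and PLAU every gout library lay below every control library on that scale too. The share of all tested rows so separated on the TPM scale was not taken. As these genes were chosen on this contrast, nothing is read from that separation. The TIMP3 row also holds an assembled transcript without a RefSeq accession, and TIMP3 lies within the span of SYN3 in the RefSeq annotation; SYN3 itself averaged 0.237 FPKM in gout and 0.267 in control.

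ADAMTS1 cleaves aggrecan and versican and is known in mammals as a gene that inflammation and hormones induce quickly. It had 29.0, 8.10, 3.84, 14.5 and 14.2 FPKM in gout replicates 1 to 5, against 6.40, 9.83 and 15.5 FPKM as the lowest, median and highest control values. Replicate 1 lay above and replicate 3 below all control libraries, and the other 3 lay among them. The log2 fold change was 0.20 (SE 0.39), and -0.12 without gout replicate 1.

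LOX, lysyl oxidase itself, had 6.79, 6.06, 6.31, 2.86 and 10.3 FPKM in gout replicates 1 to 5 and 5.15, 7.89 and 12.5 FPKM as the lowest, median and highest control values. Replicate 4 alone lay below the control range. Its log2 fold change of -0.32 (SE 0.28) differed from the median of all rows by -0.03. LOXL2, a lysyl oxidase homolog that acts on basement membrane collagen, was low in all libraries, with 2.22, 1.69, 1.54, 3.06 and 1.92 FPKM in gout replicates 1 to 5 and 1.93, 2.33 and 2.81 FPKM as the lowest, median and highest control values. Gout replicates 2, 3 and 5 were below and replicate 4 above all control libraries, but on the TPM scale 3 of the 5 lay inside the control range. The log2 fold change was -0.14 (SE 0.17), and upper quartile scaling and quantile normalization turned it to 0.04 and 0.17. LOXL2 overlaps R3HCC1 in the RefSeq annotation, a more abundant gene at a mean of 16.1 FPKM in gout and 17.97 in control.

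**Figure D2:**
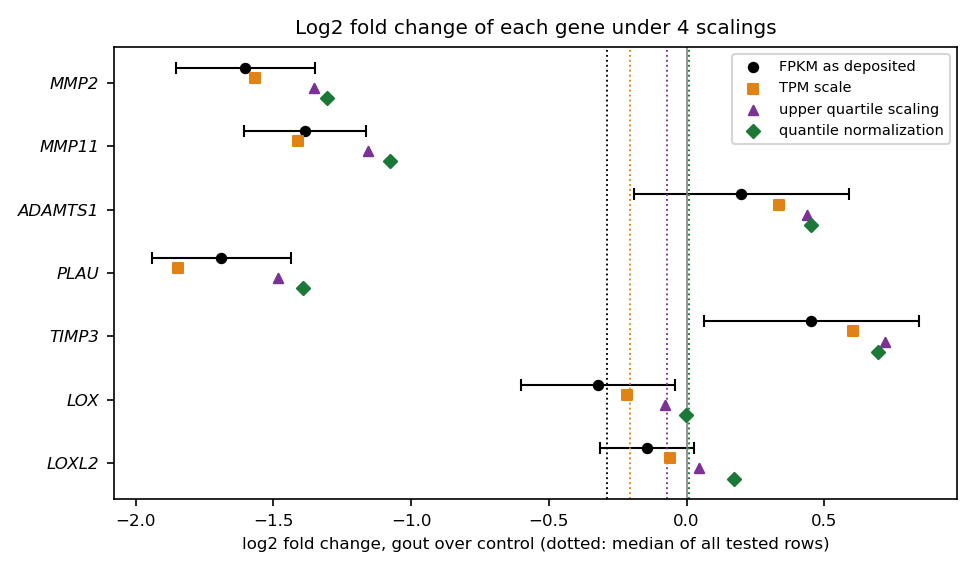
Log2 fold change of gout over control for each of the 7 genes with FPKM as deposited (black, with SE) and after 3 other scalings; dotted lines mark the median of all tested rows under each scaling, from -0.29 for FPKM to 0.01 after quantile normalization. MMP2, MMP11 and PLAU lie left of every median line and TIMP3 and ADAMTS1 right of it, whereas LOX and LOXL2 lie near it.

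The order of levels, which FPKM allows to be compared between genes, put MMP2 in another place in each group. In control kidneys TIMP3 (30.9 FPKM) and MMP2 (19.9 FPKM) came first, and each exceeded the next gene in 6 of 6 libraries. ADAMTS1, MMP11, PLAU and LOX followed at 10.3, 10.2, 8.70 and 8.08 FPKM with overlapping ranges, and LOXL2 came last at 2.37 FPKM, below all of them in every library. In gout kidneys TIMP3 (52.9 FPKM) exceeded ADAMTS1 (13.9 FPKM) in 5 of 5 libraries, and LOX at 6.45 FPKM stood next to MMP2 at 5.96 FPKM, with LOX higher in 2 of 5 libraries. MMP11, LOXL2 and PLAU closed the order at 3.36, 2.09 and 2.03 FPKM, and PLAU and LOXL2 did not differ beyond their spread.

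A ratio of a pair of genes within a library does not depend on how that library was scaled. The MMP2 to TIMP3 ratio was 0.210, 0.292, 0.269, 0.0282 and 0.0934 in gout replicates 1 to 5, against a lowest, median and highest control value of 0.475, 0.608 and 0.850. All 5 gout libraries therefore had less MMP2 transcript per TIMP3 transcript than any control library, with a mean log2 difference of -2.23, and of -1.67 without gout replicate 4. MMP2 relative to MMP11 had a median of 1.83 in gout and 1.83 in control, with overlapping ranges. PLAU relative to MMP2 had a median of 0.320 in gout and 0.450 in control, with 4 of 5 gout libraries below the control range. LOX relative to LOXL2 had a median of 3.58 in gout and 3.396 in control, and TIMP3 relative to ADAMTS1 4.66 and 3.21; the ranges of these last ratios overlapped. Ratios come from the contrast that chose the genes and were not tested.

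Some markers of fibroblasts and pericytes were lower in gout, as MMP2 and MMP11 were. Of 9 tested fibroblast and pericyte markers 3 fell, namely COL1A2, COL3A1 and FBLN1, and none rose; the summed FPKM of the 12 markers with a row was 89.3 to 239 in gout and 195 to 528 in control libraries. The defining receptors PDGFRA and PDGFRB lay under the filter, and PDGFRB ran the other way, at 0.151 to 4.49 FPKM in gout and 0.124 to 0.340 in control libraries. No marker with a row was at 0 in all libraries. Endothelial markers summed to 105 to 163 FPKM in gout and 132 to 177 in control, and 0 of 12 passed. Most of that sum was EHD3 (mean 71.5 FPKM in gout, 80.5 in control) and EGFL7 (27.1 in gout, 21.6 in control). Log2 fold changes were below 0 for 10 of the 12, with a median of -0.44 beside -0.29 for all tested rows. KDR averaged 2.09 FPKM in gout and 4.08 in control, and EMCN 4.39 in gout and 7.93 in control. Smooth muscle markers summed to 140 to 295 FPKM in gout and 136 to 749 in control, and 0 of 5 passed. Of 10 tested proximal tubule markers 3 fell, SLC6A19, SLC22A7 and GATM, and 0 rose. Their sum was 337 to 814 FPKM in gout and 438 to 2007 in control. Of 12 tested loop and distal tubule markers 3 fell, SLC12A1, CALB1 and CLDN19, and 0 rose. The sum of the 13 with a row was 129 to 265 FPKM in gout and 195 to 347 in control. PLAU was not set against the tubule sums. Of all tested rows 6.29% were called lower in gout and 0.694% higher. The part of these cell types in the results was not tested.

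Set against the summed fibroblast and pericyte markers of the same library, the 7 genes fell into different patterns. The largest parts of that sum were COL1A2 (mean 51.7 FPKM in gout, 129 in control) and COL3A1 (28.1 in gout, 88.0 in control), both called lower. A ratio to the sum is thus in large part a ratio to collagen transcripts and no measure of cell number. TCF21, also in the sum, ranged from 1.11 to 88.1 FPKM in control libraries. MMP2 was 0.0349 to 0.0523 of that sum in gout and 0.0362 to 0.0828 in control libraries, and MMP11 0.0170 to 0.0301 in gout and 0.0168 to 0.0448 in control, so that the groups overlapped for both. PLAU was 0.0115 to 0.0167 of the sum in gout and 0.0173 to 0.0419 in control, without overlap. TIMP3 stood at 0.179 to 1.29 of the sum in gout and 0.0719 to 0.155 in control, with all 5 gout libraries higher. LOX was above the control range in 4 of 5 gout libraries, ADAMTS1 in 3 and LOXL2 in 2. Relative to the endothelial sum MMP2, MMP11 and PLAU were lower in gout in all 5 libraries, with mean log2 differences of -1.53, -1.41 and -1.93. Relative to the smooth muscle sum the groups overlapped for these 3 genes. Of 5 gout libraries 4 lay below the control range for MMP2, 2 for MMP11 and 4 for PLAU. Mean log2 differences were -1.26, -1.14 and -1.66. TIMP3 overlapped between groups on both of these sums, with 3 of 5 gout libraries above the control range on each. It was 0.180 to 0.838 of the endothelial sum in gout and 0.158 to 0.237 in control. Of the smooth muscle sum it was 0.0737 to 0.572 in gout and 0.0507 to 0.209 in control. The share of all tested rows without overlap was not taken for any of these sums, so nothing is read from the separations.

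**Figure D3:**
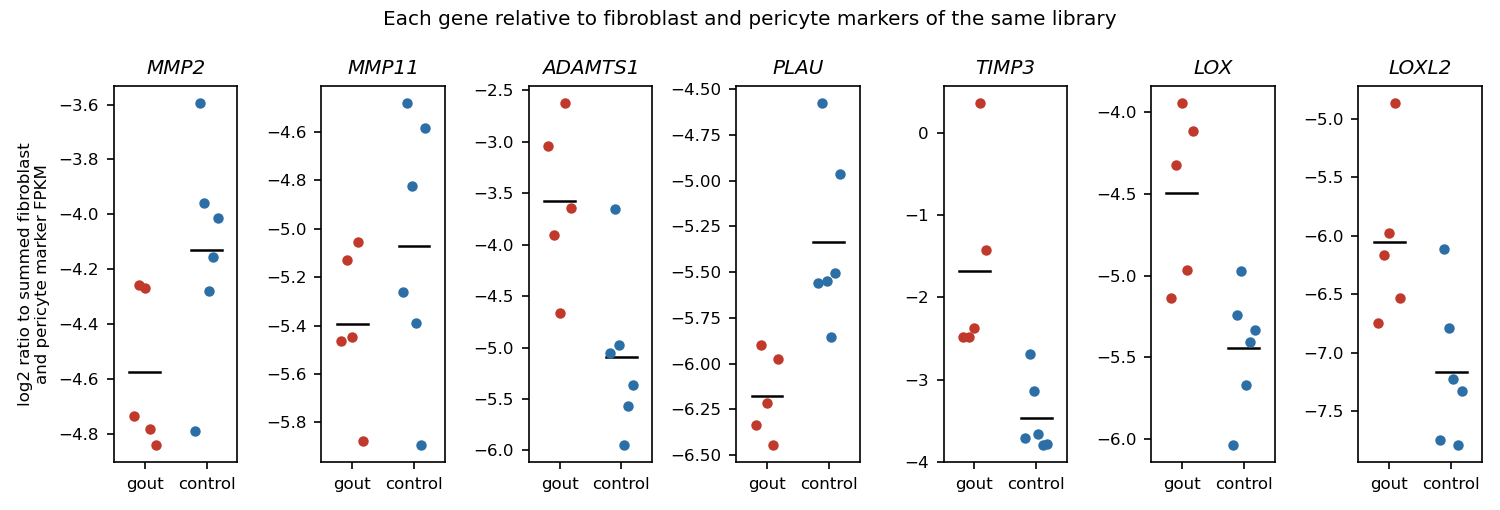
Log2 ratio of each gene to the summed FPKM of 12 fibroblast and pericyte markers of the same library, with 1 point per gosling (gout red, control blue) and group means as bars; each panel has its own range. PLAU is lower and TIMP3 higher in gout without overlap, while the groups overlap for the other 5 genes. COL1A2 and COL3A1 make up the largest parts of the sum and were themselves called lower in gout. TIMP3 in FPKM was not separated, with 3 gout libraries above and 2 below the control range.

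The wider gene families were drawn from lists by function, with the 9 genes left out. Of 20 other matrix metalloproteinases 7 had a row and 5 were tested, and 0 passed in either direction with a median log2 fold change of -0.26. MMP9, gelatinase B, a product of myeloid cells, averaged 3.07 ± 2.13 FPKM in gout and 6.05 ± 4.74 in control (SD, n = 5 and 6; limma adjusted p = 0.258). MMP15, a membrane-anchored metalloproteinase, was the most abundant of the family at 47.0 ± 16.9 FPKM in gout and 41.2 ± 6.86 in control (limma adjusted p = 0.784). Among 7 tested ADAMTS and ADAMTS-like genes 0 passed, ADAMTS10 having the smallest p at 1.96 ± 0.490 FPKM in gout and 3.25 ± 0.685 in control (limma adjusted p = 0.0947). ADAMTS5 and ADAMTS9, which cut aggrecan and versican like ADAMTS1, had log2 fold changes of -0.08 and -0.04, each of which turned positive after quantile normalization and upper quartile scaling.

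Of 9 tested ADAM and other membrane proteases, ADAM12, a protease of mesenchymal cells, fell and 0 rose. ADAM12 had 0.553 ± 0.119 FPKM in gout and 2.07 ± 0.751 in control (SD, n = 5 and 6), a log2 fold change of -0.95 with an SE of 0.18 (limma adjusted p = 0.00999), with all 5 gout libraries below the 6 control libraries. ADAM12 was under 1 FPKM in every gout library (0.395 to 0.729) and above it in every control library (1.22 to 3.38). It thus passed the filter through the control libraries alone, and nothing is read from its call or its lack of overlap. The filter at 5 FPKM left it untested. Of 19 other alternatives only leaving out gout replicates 2 and 3 together ended the call. Of 5 tested inhibitors TFPI2, a matrix-bound inhibitor of plasmin and other serine proteases, fell to 14.8 ± 11.4 FPKM in gout, against 45.1 ± 18.9 in control (limma adjusted p = 0.0237; log2 fold change -1.66 with an SE of 0.38). Leaving out gout replicate 2, 3 or 4, or control replicate 5, ended that call. RECK, a membrane-bound metalloproteinase inhibitor, averaged 0.675 FPKM in gout and 1.36 in control (limma adjusted p = 0.207), TIMP4 lay under the filter, and TIMP1 had no row.

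In the plasminogen system 0 of 13 tested genes passed, with a median log2 fold change of -0.39. PLAT, the tissue-type activator that shares plasminogen with PLAU, averaged 0.715 ± 0.330 FPKM in gout and 1.21 ± 0.237 in control (SD, n = 5 and 6; limma adjusted p = 0.155). SERPINE2, an inhibitor of urokinase and thrombin, was far more abundant at 32.4 ± 17.2 FPKM in gout and 35.7 ± 15.8 in control (limma adjusted p = 0.711). PRSS23, a secreted serine protease, had the smallest p, at 19.5 ± 5.57 FPKM in gout and 30.7 ± 4.53 in control (limma adjusted p = 0.0874).

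Of 17 tested crosslinking and collagen maturation enzymes PCOLCE2 and P3H4 fell and 0 rose, with a median of -0.33. PCOLCE2, which enhances procollagen cleavage, had 0.972 ± 0.593 FPKM in gout and 2.40 ± 0.705 in control (limma adjusted p = 0.0396), and P3H4, which acts in collagen lysine hydroxylation, had 2.98 ± 0.492 in gout and 5.90 ± 1.43 in control (limma adjusted p = 0.0323). All gout libraries but replicate 5 held PCOLCE2 under 1 FPKM, so it passed the filter through the control libraries. Neither gene passed after quantile normalization (limma adjusted p = 0.108 and 0.174) or upper quartile scaling, and each call ended in 7 of the 11 fits without a single gosling. LOXL1, the most abundant lysyl oxidase at 12.0 ± 4.08 FPKM in gout and 13.3 ± 3.48 in control, did not pass (limma adjusted p = 0.704), nor did LOXL3 at 2.17 and 2.64 FPKM (0.600). The signs of the LOXL1 and LOXL3 log2 fold changes, -0.16 and -0.19, turned after quantile normalization. TGM2, the tissue transglutaminase, averaged 80.5 ± 39.8 FPKM in gout and 114 ± 46.1 in control (limma adjusted p = 0.322).

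Cathepsins and structural substrates held most of the lower calls among the lists. The lists were chosen with earlier results of these data known, and 6.29% of all tested rows were called lower. Of 9 tested cathepsins, lysosomal proteases of which several also cut collagen or elastin, 6 fell and 0 rose: CTSZ, CTSS, CTSC, CTSH, CTSD and CTSK. CTSC averaged 34.7 ± 19.4 FPKM in gout and 87.1 ± 27.3 in control (SD, n = 5 and 6; limma adjusted p = 0.0226), and CTSH 35.1 ± 13.4 in gout and 78.5 ± 26.2 in control (limma adjusted p = 0.0284). With single goslings left out, 2 to 6 cathepsins passed, and 3 passed after quantile normalization and after upper quartile scaling. CTSK, the collagen-cutting cathepsin of osteoclasts and fibroblasts, averaged 8.45 FPKM in gout and 18.3 in control (limma adjusted p = 0.0352). Genes listed as macrophage markers were lower in gout as well: 8 of 9 tested fell, beside 6.29% of all tested rows. Of the 15 listed, 6 had no row, among them CD68, CD14 and MRC1, so the calls rest on the others, such as PTPRC, LCP1 and CD74. The summed FPKM of the 9, CTSS included, was 150 to 1505 in gout and 1025 to 5015 in control libraries. Most of that sum was CD74, which averaged 421 FPKM in gout and 2273 in control. The part of those cells in the cathepsin values was not tested.

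Of 30 tested structural substrates 9 fell and 0 rose, with a median log2 fold change of -0.99. COL18A1, a basement membrane collagen, had 4.83 ± 0.663 FPKM in gout and 14.5 ± 2.86 in control (limma adjusted p = 0.00246), and COL3A1, a fibrillar collagen, 28.1 ± 8.83 in gout and 88.0 ± 33.5 in control (limma adjusted p = 0.0105). COL1A2, COL3A1 and FBLN1 are also among the fibroblast and pericyte markers. With single goslings left out, 4 to 14 substrates passed. In TNC, FBLN1, COL3A1 and COL18A1 every gout library lay below every control library, and so it was in every other called substrate but COL1A2. Of all tested rows 4.55% were separated in that direction. The calls rest on the same values, so nothing further is read from the separation. COL4A1 and the perlecan gene HSPG2 stood at log2 fold changes of 0.28 and 0.21 and did not pass. Other type IV collagen genes went the other way and did not pass either. COL4A2 stood at -1.26 (limma adjusted p = 0.0507), with 4 of 5 gout libraries below all control libraries. COL4A3 stood at -0.32 (limma adjusted p = 0.268). Over all 8 lists 19 of 95 tested genes fell and 0 rose, and over the 6 lists of proteases, inhibitors and crosslinkers 4 of 56 fell, a share near the 6.29% of all tested rows.

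**Figure D4:**
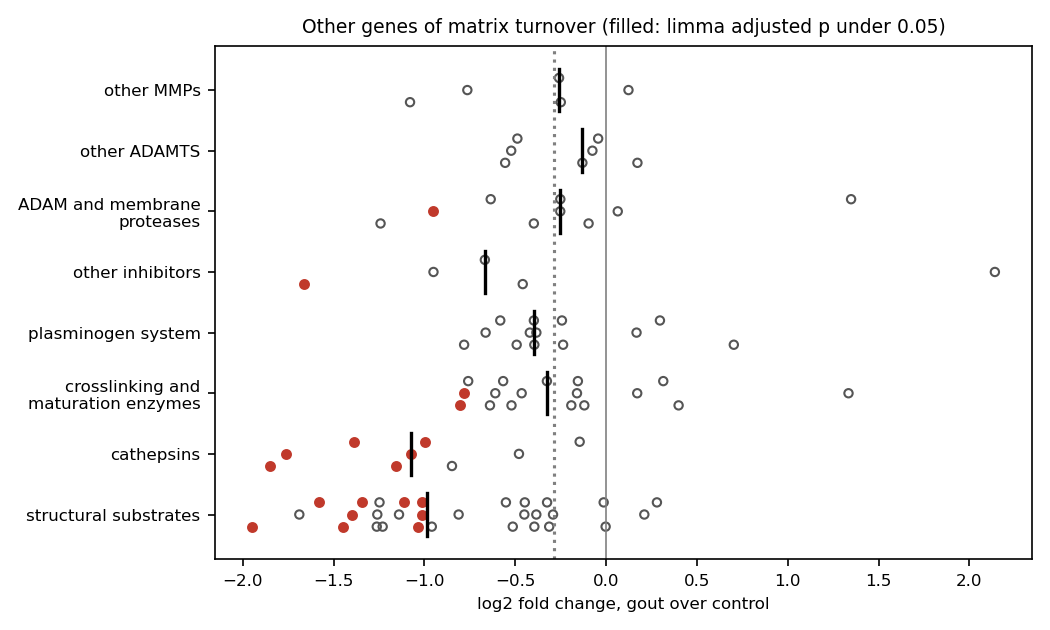
Log2 fold change of gout over control for each tested gene of 8 lists (1 point per gene; filled red points have a limma adjusted p under 0.05), with list medians as black bars and the median of all tested rows, -0.29, as a dotted line. All filled points lie on the negative side, 15 of them among cathepsins and structural substrates and 4 among the other 6 lists.

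After the group means were subtracted, so that the difference between groups played no part, each gene was set against 8627 other tested rows with a symbol over the 11 libraries. The nearest rows were FRYL and VPS13A for MMP2 (Pearson r = 0.96 and 0.95), DDX52 and STAT4 for MMP11 (0.89 and 0.87), SMAD7 and EXOC3 for PLAU (0.96 and 0.95), PPAP2C and SOAT1 for TIMP3 (0.97 and 0.97), and SAT1 and INSIG1 for ADAMTS1 (0.98 and 0.97). For LOX they were CCPG1 and a row joining CFLAR and CASP10 (0.96 and 0.95), and for LOXL2 SSH1 and TMEM52 (0.93 and 0.92). These are the highest of 8627 values each, over 11 libraries that share a scaling, and 7 of 42 moved by 0.1 or more under another scaling or pseudocount, the lowest to 0.49. For TIMP3, r with PPAP2C and SOAT1 was 0.67 and 0.72 among control libraries alone, and 0.995 and 0.98 among gout libraries alone. Between members, MMP2 lay nearest to LOX (r = 0.78) and PLAU (0.77), and TIMP3 nearest to LOXL2 (0.77). Gout replicate 4 was the highest gout library for both TIMP3 and LOXL2, and r between members was not taken by group.

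Individual diseased goslings were not uniformly high or low. Gout replicate 1 had the highest gout value of 4 of the 7 genes, MMP2, MMP11, PLAU and ADAMTS1. Gout replicate 4 had the lowest gout value of MMP2, PLAU and LOX and the highest of TIMP3 and LOXL2. The coefficient of variation was larger in gout than in control kidneys for all 7 genes, by the widest margins for TIMP3 and for ADAMTS1 (68.4% in gout and 32.4% in control). Summed FPKM per library also varied more in gout, with an SD of 73998.6 against 29008.5 in control. The share of all tested rows with a larger coefficient in gout was not taken, so whether this is particular to these genes is unknown.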

How the data were processed

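Kidney RNA of 11 goslings was sequenced as paired-end polyadenylated libraries, per the labels' protocols. A treatment text in the labels on oxygen in water tanks was taken to concern no gosling and was not used. A mention of adipose tissue in the labels was likewise left unused. HISAT and StringTie are named in the submitters' processing notes; neither their versions nor the genome build are given in the sources used here. FPKM values were deposited by the authors with 1 column per gosling, matched by title. Low values were examined for steps of single fragments: in 55 pairs of libraries at most 0.921% of low rows shared a ratio, so no counts were recovered and counting error is unknown. Pairing by label number was not used, since the labels tie no number to a litter or day.

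Values were analysed as log2(FPKM + 1) with limma 3.58.1 in R 4.3.3 (linear model on group, empirical Bayes with trend, two-sided, Benjamini-Hochberg adjustment over 12252 rows, threshold 0.05) and Python 3.11.15. A fold change on this scale understates changes of low genes. The steps were run on simulated data with independent noise in each row and no shift shared by a library. That simulation cannot show how differences in library totals or composition affect the calls. The genes and lists were chosen with earlier results of these data known. Genes outside the 9 were named as up to 4 passing members per list with the largest fold change, or the smallest p where none passed. To these were added 15 genes given by name, and 2 likest rows per gene. COL4A1, COL4A2, COL4A3, HSPG2, CTSK, MMP15 and the cell markers were named after their values were seen. Alternatives covered pseudocount, filter, 3 scalings, robust variance, a replicate block and each gosling left out. The goslings are described as separate animals.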

Additional observations from a re-analysis of the deposited data

Results flagged for a closer look

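Of 62 groups of values examined for a library far from the others, 1 held such a library. That is below the rate of about 1 in 20 that chance gives. PCOLCE2 stood at 2.02 FPKM in gout replicate 5, against 0.784 FPKM in the next gout library.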

How the results depend on the processing

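Over 20 alternatives the log2 fold change was -1.75 to -1.31 for MMP2, -1.62 to -1.08 for MMP11 and -2.10 to -1.39 for PLAU; as these genes were chosen on this contrast, the ranges are a description and no support for it. TIMP3 (0.10 to 1.14), ADAMTS1 (-0.12 to 0.81), LOX (-0.49 to -0.00) and LOXL2 (-0.25 to 0.17) are given in the same way. The cause of the changes below was not tested, and the unknown depth limits what can be said of genes of low FPKM. The alternative without gout replicates 2 and 3 and the marker ratios were chosen after seeing the data. So were the ratios of MMP2 to MMP11, PLAU to MMP2 and TIMP3 to ADAMTS1. Those of MMP2 to TIMP3 and LOX to LOXL2 were planned, but for genes chosen with this contrast known.

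Over all tested rows 856 were called, 771 lower and 85 higher in gout, so that 9.93% of calls were higher. The filter at 5 FPKM gave 450 (401 lower, 49 higher). Quantile normalization gave 471 (245 lower, 226 higher, 48.0% of calls higher), upper quartile scaling 522 (341 lower, 181 higher, 34.7%) and the TPM scale 712 (571 lower, 141 higher, 19.8%). Without gout replicates 2 and 3 there were 161 (93 lower, 68 higher, 42.2%). Leaving out 1 gosling gave 301 (without control replicate 5) to 1461 calls (without gout replicate 5), 258 to 1384 of them lower and 43 to 85 higher.

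By list, ADAM proteases had 0 lower at the filter of 5 FPKM, where ADAM12 was not tested. They had 0 lower without gout replicates 2 and 3, and 1 to 2 with a gosling left out. Inhibitors had 0 lower without gout replicates 2 and 3, and 0 to 1 with a gosling left out. The plasminogen system had 1 higher without gout replicates 2 and 3, and 0 to 1 lower and 0 to 1 higher with a gosling left out. Crosslinkers had 1 lower without a filter. They had 0 lower after quantile normalization, after upper quartile scaling, with the block and without gout replicates 2 and 3. At 5 FPKM there were also 0 lower, but PCOLCE2 and P3H4 were not tested there. Crosslinkers had 1 higher after quantile normalization, and 0 to 3 lower with a gosling left out. Cathepsins had 3 lower after quantile normalization and after upper quartile scaling, 1 without gout replicates 2 and 3, and 2 to 6 with a gosling left out. Substrates had 3 lower without gout replicates 2 and 3 and 4 to 14 with a gosling left out.

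Signs turned for LOXL2 and ADAMTS1 and for other genes that passed in no setting. After quantile normalization the log2 fold change was 0.17 for LOXL2, 0.12 for LOXL1, 0.13 for LOXL3, 0.23 for ADAMTS5 and 0.25 for ADAMTS9. After upper quartile scaling it was 0.0445 for LOXL2, 0.0206 for SERPINE2, 0.10 for LOXL1, 0.0669 for ADAMTS5 and 0.19 for ADAMTS9, and on the TPM scale 0.0904 for ADAMTS9. Without gout replicates 2 and 3 it was 0.00232 for LOXL2, 0.34 for SERPINE2, 0.0328 for LOXL1 and 0.13 for ADAMTS9. With a gosling left out it was -0.12 to 0.54 for ADAMTS1, -0.48 to 0.10 for SERPINE2, -0.15 to 0.0212 for ADAMTS5 and -0.16 to 0.0581 for ADAMTS9. The log2 difference of the ratio was then -0.38 to 0.25 for LOX to LOXL2, -0.22 to 0.0364 for MMP2 to MMP11 and -0.0086 to 0.60 for TIMP3 to ADAMTS1.

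Label numbers did not pair the goslings: same-numbered libraries correlated at -0.09 to 0.24 after group means were removed, over 0.1 in 1 of 5 pairs, and 1 of 5 correlated best with its own number. With the replicate number as a block, to which control replicate 6 adds nothing since it has no partner, 671 rows were called, 598 lower and 73 higher. The block gave MMP2 -1.57, MMP11 -1.28, PLAU -1.61, TIMP3 0.40, ADAMTS1 0.16, LOX -0.29, LOXL2 -0.16 and ADAMTS9 0.0117, and 1 lower gene in the plasminogen system.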

Other observations

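Some family members outside the lists' calls differed in single goslings; they were chosen after their values were seen. ADAM8, a membrane protease of myeloid cells, had 14.5 and 35.1 FPKM in gout replicates 1 and 4, and 0.826 to 2.28 FPKM in the other gout libraries, against 0.760 to 2.31 FPKM in control libraries (limma adjusted p = 0.195). SPOCK1, a secreted proteoglycan that modulates metalloproteinases, had 181 FPKM in gout replicate 5 and 6.51 to 17.96 FPKM in the other gout libraries, against 0.970 to 15.4 FPKM in control libraries (limma adjusted p = 0.0862). MMP7, matrilysin, ranged from 0.252 to 5.28 FPKM in gout and from 0.895 to 22.3 FPKM in control libraries.

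The table annotates 7 further rows of these families without a gene symbol, and 0 of them passed the filter. A row annotated as collagenase 3-like reached 21.8 FPKM in control replicate 5 and at most 0.468 FPKM in gout and 0.514 in the other control libraries. A row annotated as interstitial collagenase-like had 1.25 and 1.92 FPKM in gout replicates 1 and 4, the same goslings that were high for ADAM8, against at most 0.310 FPKM in control libraries. A row annotated as plasminogen-like had at most 0.0268 FPKM in gout and 0.278 to 1.92 FPKM in control libraries, with no overlap. These differences were not tested.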
